A study of Mus musculus with 12 samples.

Results

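The genes described here encode the subunits of the proteasome, its activators and its inhibitor, and the chaperones that assemble it. They are the rows of the deposited count table whose symbol, ignoring case, is Psma, Psmb, Psmc, Psmd, Psme, Psmf or Psmg followed by a number and nothing else. That gives 48 of the 22416 genes in the table: 8 subunits of the alpha ring, 7 constitutive subunits of the beta ring, 4 tissue-specific beta subunits, 9 subunits of the base, 8 of the lid, 5 activators and inhibitor genes, and 7 assembly factors. Psmc3ip and Psme2b carry further letters after the number and were left out.

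The proteasome is the main protease for ubiquitin-tagged proteins in the cytosol and nucleus. Alpha and beta rings stack into a hollow core whose beta subunits cut the substrate, and the regulatory particle caps the core: its base holds a ring of ATPases that unfold proteins, and its lid removes ubiquitin. Other caps open the core without ubiquitin or ATP, among them the dimer of Psme1 and Psme2, the nuclear ring of Psme3 and the single large protein encoded by Psme4. Embryonic stem cells are known for high proteasome activity, and the immunoproteasome subunits Psmb8, Psmb9 and Psmb10 are best known from immune cells, where they replace their constitutive counterparts.

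The RNA-seq libraries come from mouse embryonic stem cells (mESCs) in 4 groups of 3 libraries, the 2 genotypes crossed with 2 media. WT cells carry eIF2α+/+ and knock-in (KI) cells carry eIF2αA/A, in which eIF2α, the initiation factor encoded by Eif2s1, has lost the serine that stress kinases phosphorylate. Each genotype was kept for 6 days in a serum-free medium with serum replacement, either with LIF and 2 inhibitors, PD0325901 against MEK and CHIR99021 against GSK3 (LIF/2i), or with LIF. All groups received LIF, and the RNA of all groups came from the supernatant of a spun lysate of cells washed with cycloheximide, so RNA in the pellet was not measured. The labels name no line or clone and do not say whether replicates were separate cultures, and p-values therefore reflect sample-to-sample spread that could be technical only.

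Library totals ranged from 2307219 to 9713857 counts. In WT LIF, the counts of replicates 1 and 3 differed by less than sampling noise (chi-square per degree of freedom 0.858 over 12373 genes), so both were counted as 1 sample, which left 2 samples in that group and 11 in all. The pluripotency factor Pou5f1 stood at 714 to 1163 CPM (counts scaled to the library total) over the samples. Other markers of its list of 10, all tested, moved with the medium. From LIF/2i to LIF, edgeR's test called 1 higher and 4 lower in each genotype (13% of all genes were called in WT, 9.05% in KI). Their median log2 fold change was -0.38 in WT and -0.54 in KI cells. Between genotypes in LIF/2i 1 was called higher (2.21% of all genes were called). The altered codon of Eif2s1 cannot be seen in the counts, so the genotype labels rest on the submitters. Summed Y-linked counts ran from 46.2 to 276 CPM in the WT samples, and WT replicate 2 of both media was the lowest WT sample of its medium. In the KI libraries the sums were 42.2 and 36.0 CPM in replicate 1 of LIF/2i and of LIF, against 1.51 to 3.81 CPM in the others, so KI replicate 1 stood apart in both media. In bulk RNA, fewer cells of a type and less RNA per cell cannot be told apart.

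Levels are given as CPM scaled by TMM (a factor per library that evens out a few very abundant genes), and levels of different genes are compared as CPM per kilobase of coding sequence. Of the 48 genes, 47 had a coding length in the annotation (all but Psmc2). In the WT LIF/2i mean, the beta subunit Psmb4 was first with 503 CPM per kilobase. Psme4 followed with 383, above every other activator and above 98.9% of the tested genes that had a coding length. The alpha subunit Psma7 had 378, and the ubiquitin receptor Psmd4 of the base had 328. The order at the top rests on WT LIF/2i replicate 2, which stood high for Psmb4 and Psmd4 (described with those genes). Without it Psme4 was first with 378 CPM per kilobase, Psmb4 had 377.6 and Psma7 371, which differ by less than the spread between libraries, and Psmd4 had 251 and came seventh. The caps thus included 1 of the most abundant members and, with Psme2, 1 of the lowest values. That low value is uncertain as a level, since Psme2 shares much of its coding sequence with a copy (described below). Among the other caps, Psme3 had 173 CPM per kilobase, Psme1 28.9 and Psme2 1.32. The inhibitor Psmf1 had 38.3 CPM per kilobase, and the assembly factors ran from 23.8 for Psmd9 to 142 for Psmg1.

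Subunits that sit in the particle in equal numbers had very unequal levels per length, and those levels went with how much of each coding sequence is repeated elsewhere. Many proteasome genes have processed pseudogenes or close copies. For 17 of the 47 genes, over 10% of the 30-base words of the coding sequence also occur in a transcript of another gene. Among the 13 core and regulatory particle subunits above that bound (Psma8 and the tissue-specific subunits set aside), the median was 36.0 CPM per kilobase in WT LIF/2i, from 2.54 to 238. Among the 17 at or below it, the median was 219, from 123 to 503. Over these 30 subunits, Spearman's rho between the shared percentage and the level was -0.81, given as a description, since the points share libraries and depth. How reads with several matches were treated is not given in the sources used here, so low values of genes with copies are uncertain as levels.

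**Figure D1:**
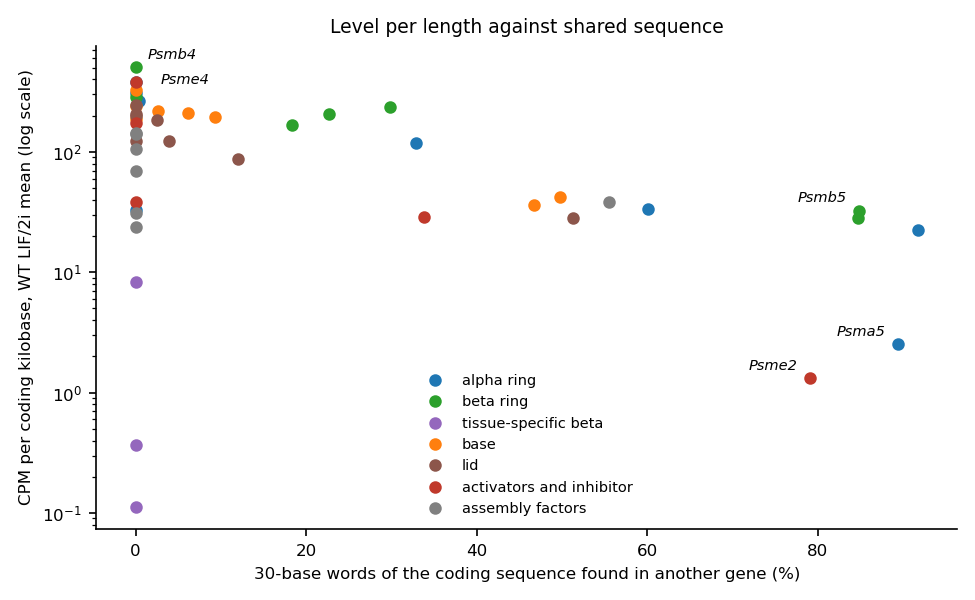
CPM per coding kilobase in the WT LIF/2i mean (log scale) against the percentage of 30-base words of the coding sequence that occur in another gene, 1 point per gene, coloured by role. Alpha ring, constitutive beta ring, base and lid subunits with at most 10% shared words, other than Psma8, stand between 123 and 503. The tissue-specific Psmb10, Psmb9 and Psmb11, which share no words, stand at 8.34, 0.37 and 0.11, while Psma5 stands at 2.54 and Psme2 at 1.32. Psmb8 had no count in this group and is not drawn.

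The alpha subunit Psma5 is the extreme case: 89.3% of its words are shared, and its summed count over the 12 libraries was 137. The pseudogene Gm12989 matches bases 332 to 391 of its 723 coding bases without a difference, as shown by the 2 stretches set beside each other. They are shown because reads from such a stretch cannot be assigned to 1 of the genes.
Psma5: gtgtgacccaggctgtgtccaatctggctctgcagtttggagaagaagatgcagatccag
Gm12989: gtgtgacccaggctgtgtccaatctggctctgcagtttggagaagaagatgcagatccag
For Psme2, the copy is the annotated coding gene Psme2b, which is identical at 712 of 717 coding bases (99.3%). The table held 77 counts for Psme2 and 4 for Psme2b over the 12 libraries. Bases 329 to 388 hold 1 of the differing bases, in capitals, the substitution A369G counted from the first coding base of Psme2.
Psme2: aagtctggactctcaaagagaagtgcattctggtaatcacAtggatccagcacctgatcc
Psme2b: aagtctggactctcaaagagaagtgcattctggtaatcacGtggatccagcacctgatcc
Both stretches are from the GENCODE M21 transcripts of GRCm38.

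The first comparison set KI against WT cells in LIF/2i. Psme4 fell and Psmd13, a lid subunit, rose in KI cells, and no other member passed the test. These 2 are among 46 members tested; Psmb8 and Psmb11 had too few counts. Over all 13229 genes tested in this comparison, 2.21% were called at an adjusted p under 0.05. Without both KI libraries numbered 1, an alternative chosen after seeing the data, 4 members were called (Psme4, Psmd13, Psme3 and Psmc5). Over all 13130 genes tested in that fit, 688 were called higher and 878 lower. Another such alternative left out both WT libraries numbered 2, which reduced WT LIF to the averaged sample. Its log2 fold changes were -0.67 for Psme4 and 0.75 for Psmd13. The tested members otherwise lay slightly above WT: 33 of 46 log2 fold changes were above 0, with a median of 0.20, against 52.1% above 0 and a median of 0.02 over all genes. In 12 members every KI sample was above every WT sample, where 11.7% of all genes had that order, and in 1 member, Psme4, every KI sample was below (11.1% of all genes).

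Members with and without copies are given apart, since the treatment of reads with several matches is not known here. Of the 16 tested members with over 10% shared words, 15 had a log2 fold change above 0, with a median of 0.32. Of the 29 with less, 17 were above 0, with a median of 0.10. The part of shared sequence in the higher values was not tested.

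The other comparisons called few members. Between KI and WT in LIF, edgeR's quasi-likelihood test called 0 members (0.144% of all genes were called). DESeq2 likewise called 0 members, with 86 genes called higher and 120 lower of 13229. An unadjusted p under 0.05 in edgeR's test was seen in 2 members and in 10.7% of all genes. There 8 members were higher and 4 lower without overlap (15.9% of all genes each way). Between LIF and LIF/2i in WT cells, Psmb9 rose in LIF and Psme4 fell, where 13% of all genes were called. Psmb9 was kept for testing only through its LIF samples. In WT cells 19 members were higher and 4 lower in LIF without overlap (24.2% and 24.5% of all genes). Between LIF and LIF/2i in KI cells edgeR's test called 0 members with 9.05% of all genes called. DESeq2 called 2 members there, with 773 genes called higher and 856 lower of 13229. An unadjusted p under 0.05 in edgeR's test was seen in 3 members and in 23.7% of all genes. In KI cells 2 members were higher and 4 lower without overlap (13.3% and 13.9% of all genes). The labels do not say that KI replicate numbers mark shared cultures. KI libraries of the same number deviated together across media, with correlations of 0.50, 0.37 and 0.22 for replicates 1, 2 and 3. The last is close to the 0.21 between KI LIF/2i replicate 2 and KI LIF replicate 3. A fit of the KI libraries alone with a term for the replicate number was chosen after seeing the data. It called 2 of 44 members, Psme4 and Psmb10 (the replicate block below). In that fit 1014 of 12072 genes were called higher and 992 lower. In the test of the difference between genotypes in their medium response, edgeR called no gene of the table (0%). DESeq2 called 0 members there, with 9 genes called higher and 13 lower of 13229. An unadjusted p under 0.05 in edgeR's test was seen in 1 member, Psmb9, and in 5.98% of all genes. KI against WT in LIF/2i and LIF against LIF/2i in WT use the same WT LIF/2i libraries, and the other comparisons share groups in the same way, so they are not independent of each other.

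**Figure D2:**
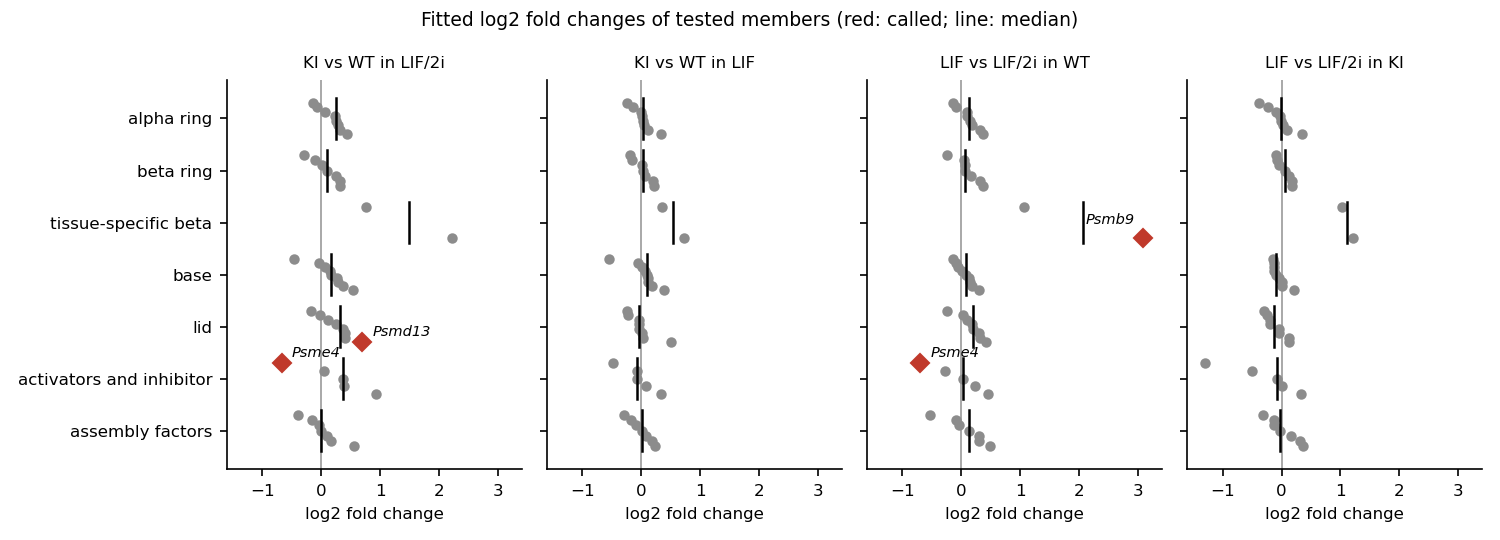
Fitted log2 fold changes of the 46 tested members in 4 comparisons, 1 point per gene, in rows by role; the black line is the median of the row and red diamonds are called genes. Psme4 stands at -0.67 and -0.70 where it is called, and most core and regulatory particle subunits stand within 0.5 of 0.

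Psme4 encodes PA200, a cap of the core known for degrading acetylated histones in spermatids and in DNA repair. The gene lies at chr11:30771726-30880361 on the plus strand (GRCm38), and none of its 30-base words is shared with another gene. In WT LIF/2i the 3 libraries had 2243, 2169 and 1936 CPM. In WT LIF the 2 samples had 1367 and 1244 CPM. The KI libraries held 1477, 1193 and 1320 CPM with the inhibitors, and 1148, 818 and 845 CPM with LIF alone. The WT LIF/2i libraries stood above every other sample, the KI LIF libraries below every other sample, and KI cells in LIF/2i covered the range of WT cells in LIF.

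In LIF/2i, Psme4 was lower in KI than in WT cells, with a log2 fold change of -0.67 ± 0.15 (SE) and an adjusted p of 0.0405. From LIF/2i to LIF, the log2 fold change was -0.70 ± 0.17 in WT cells, adjusted p = 0.0184. In KI cells it was -0.51 ± 0.15, adjusted p = 0.0538. With the replicate block over the KI libraries, chosen after seeing the data, it was -0.51 with an adjusted p of 0.0117. Between KI and WT in LIF the log2 fold change was -0.48 ± 0.16 and did not pass, adjusted p = 0.311. The interaction was 0.19 ± 0.22, adjusted p = 0.951.

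Between genotypes in LIF/2i, 129 genes of the table were called higher and 164 lower with all samples. Without WT LIF/2i replicate 1 these numbers were 31 and 33. The calls of Psme4 likewise rest on few samples. Over the leave-one-out fits and other settings its log2 fold change between genotypes in LIF/2i stayed between -0.77 and -0.61, and the adjusted p ran from 0.00132 to 0.147. It lost the call without any 1 of WT LIF/2i replicates 1, 2 and 3 (adjusted p 0.128, 0.0974 and 0.0612), KI LIF/2i replicates 2 and 3 (0.118 and 0.104), KI LIF replicates 2 and 3 (0.0536 and 0.0616) or WT LIF replicate 2 (0.0648). Between media in WT the log2 fold change stayed between -0.77 and -0.62, and leaving out WT LIF/2i replicate 1 or 2 (adjusted p 0.0647 and 0.0549) or WT LIF replicate 2 (0.160) ended the call.

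**Figure D3:**
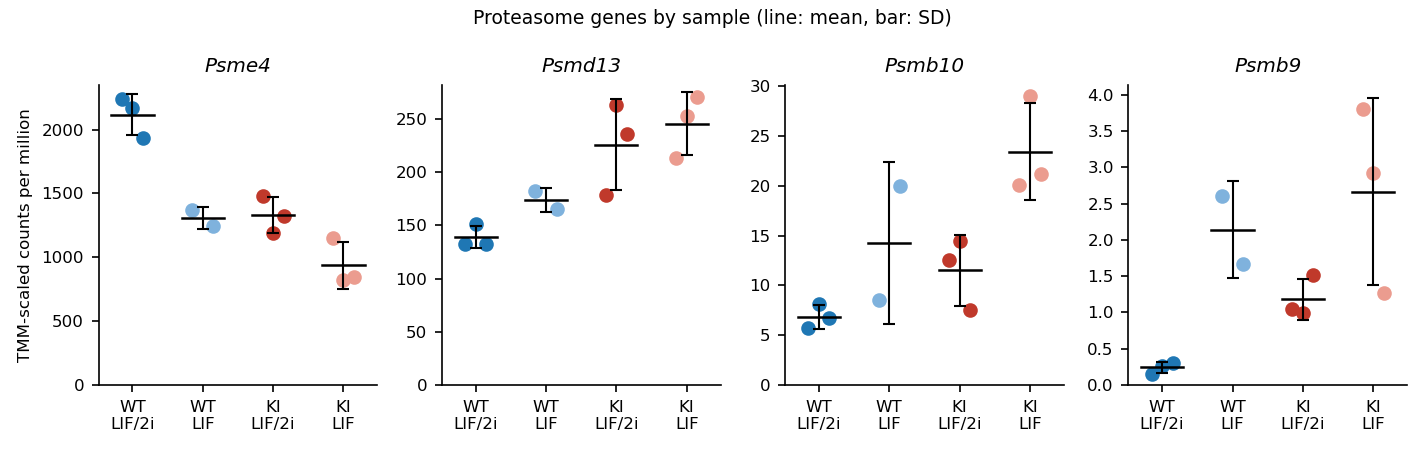
TMM-scaled CPM of Psme4, Psmd13, Psmb10 and Psmb9 in each sample, with the group mean (line) and SD (bar); WT LIF has 2 samples and the other groups 3. Psme4 is highest in the WT LIF/2i libraries (1936 to 2243) and lowest in KI LIF (818 to 1148), while Psmb9 stays under 4 CPM throughout.

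Psme4 is long and abundant, so it moves the total of the list. It held 23.5% to 25.9% of the members' summed CPM in the WT LIF/2i libraries, 15.6% and 16.5% in the WT LIF samples, 14.8% to 18.1% in KI LIF/2i and 11.0% to 13.7% in KI LIF. The summed CPM of the 5 activator and inhibitor genes was 2301 ± 168 (SD, n = 3) in WT LIF/2i, 1522 ± 88.5 (n = 2) in WT LIF, 1564 ± 118 (n = 3) in KI LIF/2i and 1169 ± 166 (n = 3) in KI LIF. The adjacent genes on chromosome 11 were Asb3, with a log2 fold change of -0.23 between genotypes in LIF/2i (adjusted p = 0.449), and Gpr75, with -0.45 (adjusted p = 0.639).

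The stretch upstream of the annotated first exon of Psme4, at chr11:30771525-30771725 on the plus strand (RefSeq promoter table, GRCm38.p6), is printed because Psme4 was the member called in 2 comparisons. It holds none of the 3 motifs searched.
Psme4: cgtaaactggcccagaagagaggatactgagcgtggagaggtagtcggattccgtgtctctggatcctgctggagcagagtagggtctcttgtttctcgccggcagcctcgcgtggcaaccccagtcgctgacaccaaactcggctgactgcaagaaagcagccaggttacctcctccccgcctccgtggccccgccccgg

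The other activators did not pass the test in any of the 5 tests. Psme3, whose ring sits in the nucleus, had 133, 138 and 123 CPM in WT LIF/2i and 143, 179 and 193 CPM in KI LIF/2i. The groups did not overlap, but the log2 fold change of 0.38 ± 0.15 had an adjusted p of 0.179. In LIF it had 160 and 148 CPM in WT samples and 143, 153 and 193 CPM in KI libraries, which overlap. Without both KI libraries numbered 1, an alternative chosen after seeing the data, Psme3 was called in LIF/2i with 0.49 and an adjusted p of 0.0424.

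Psme1, a partner in the interferon-inducible cap, had 21.2, 21.1 and 22.5 CPM in WT LIF/2i and 18.6, 30.1 and 34.9 CPM in KI LIF/2i. In LIF it had 24.2 and 34.6 CPM in WT and 19.7, 31.9 and 31.7 CPM in KI. KI replicate 1 was the lowest KI library in both media. Its partner Psme2 stayed between 0.346 and 3.02 CPM (1 to 18 counts a library) and shares most of its sequence with Psme2b, so its log2 fold changes of -1.29 to 0.93, none called, are uncertain. Psmf1, which encodes the inhibitor PI31, had group means of 31.2, 31.9 and 32.4 CPM in WT LIF/2i, WT LIF and KI LIF/2i and 40.6 CPM in KI LIF, and was not called.

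No constitutive subunit of the alpha or beta ring passed the test in any comparison, though Psmb6 did between media in WT under 3 of the alternatives. Over the 15 genes of these rings, 11 log2 fold changes between KI and WT in LIF/2i were above 0, with a median of 0.24 and a range from -0.30 for Psmb4 to 0.45 for Psma4. Between KI and WT in LIF the median was 0.03. From LIF/2i to LIF it was 0.10 in WT and -0.01 in KI cells. All 15 lay within 0.5 of 0 in each of the 4 comparisons.

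**Figure D4:**
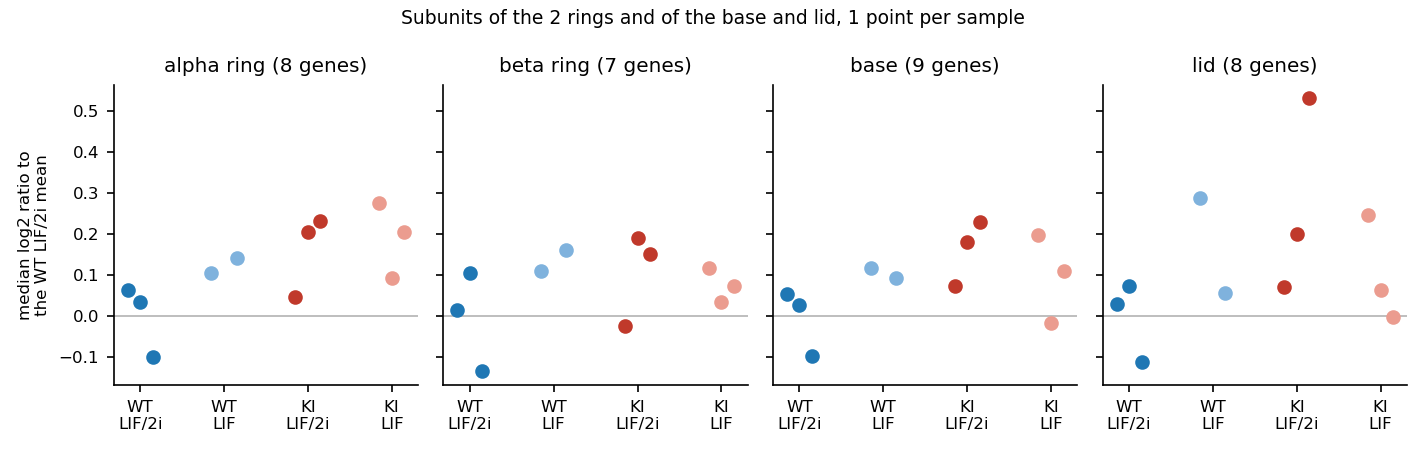
Median log2 ratio of the tested genes of each ring, the base and the lid to the WT LIF/2i mean, 1 point per sample, coloured by group. The alpha ring medians run from -0.10 to 0.06 in WT LIF/2i and from 0.05 to 0.23 in KI LIF/2i, and the lid median of KI LIF/2i replicate 3 stands highest at 0.53.

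The catalytic subunits of the beta ring differ in how well they can be read. Psmb6 carries the caspase-like site. It had 119, 132 and 109 CPM in WT LIF/2i and 154 and 157 CPM in WT LIF, so the groups did not overlap (24.2% of all genes were higher in every WT LIF sample). The log2 fold change of 0.37 ± 0.13 had an adjusted p of 0.0886. It was called with library totals alone (0.44, adjusted p = 0.0401), with the replicate block over all libraries (0.36, adjusted p = 0.0480) and with 12 separate libraries (0.36, adjusted p = 0.0367). In KI cells Psmb6 had 131, 151 and 148 CPM with the inhibitors and 163, 149 and 160 CPM without them, which overlap.

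Psmb7, with the trypsin-like site, had 211, 198 and 183 CPM in WT LIF/2i, 263 and 228 CPM in WT LIF, 214, 239 and 287 CPM in KI LIF/2i and 286, 272 and 284 CPM in KI LIF. The WT LIF/2i libraries were the lowest, and KI LIF/2i replicate 1 stood just above them. Its adjusted p was 0.20 between genotypes and 0.193 between media in WT. Psmb5, with the chymotrypsin-like site, had between 20.6 and 28.3 CPM in all samples and shares 84.8% of its words.

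In the alpha ring, Psma7 and its counterpart Psma8, known from testis, can be set side by side, since neither shares any word with another gene. In WT LIF/2i Psma7 had 378 CPM per kilobase and Psma8 33.0. Psma7 ran from 252 to 343 CPM over all samples without a call. Psma8 ran from 16.1 to 31.3 CPM, and its KI LIF libraries (23.5, 30.2 and 31.3 CPM) stood above the WT LIF samples (23.3 and 21.8 CPM), with an adjusted p of 0.706.

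Of the 17 subunits of the base and lid, Psmd13 was the 1 that passed the test, between genotypes in LIF/2i. Of the 17 log2 fold changes in that comparison, 13 were above 0, with a median of 0.25; between genotypes in LIF 10 were above 0, with a median of 0.02. From LIF/2i to LIF the median was 0.13 in WT cells, with 13 above 0, and -0.10 in KI cells, with 5 above 0. In the interaction 15 of the 17 were below 0, with a median of -0.16, where 46.4% of all genes were above 0, and none was called. Without KI LIF/2i replicate 3, the lid median between genotypes in LIF/2i went from 0.31 to 0.14.

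Psmd13 encodes a scaffold subunit of the lid and lies at chr7:140881968-140898642 on the plus strand. In WT LIF/2i it had 133, 151 and 133 CPM. In KI LIF/2i it had 179, 263 and 235 CPM. In LIF it had 182 and 166 CPM in WT samples and 213, 253 and 270 CPM in KI libraries. In both media every KI library stood above every WT sample. The log2 fold change was 0.70 ± 0.16 in LIF/2i, adjusted p = 0.0415, and 0.50 ± 0.18 in LIF, adjusted p = 0.328.

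Most leave-one-out fits also ended the call of Psmd13, with adjusted p-values up to 0.143, reached by leaving out WT LIF/2i replicate 1. Its log2 fold change stayed between 0.56 and 0.83. The start of the gene overlaps Sirt3, a mitochondrial deacetylase on the opposite strand, and the sources used here do not say whether strand was used in counting. Sirt3 had a log2 fold change of 0.36 (adjusted p = 0.516). Ric8a, on the far side of Sirt3, had 43.8 CPM in WT LIF/2i and 84.6 CPM in KI LIF/2i on average, with a log2 fold change of 0.94 (adjusted p = 0.0675). The part of these neighbours in the Psmd13 difference was not tested.

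Other regulatory particle genes moved less. Psmc1 of the base came next to Psmd13 between genotypes in LIF/2i, with a log2 fold change of 0.54, and had 0.38 in LIF. It was called in neither medium and shares 49.7% of its words, so its values are uncertain. Psmc5, an ATPase of the base, had a log2 fold change of 0.37 ± 0.12 between genotypes in LIF/2i, adjusted p = 0.118. Psmd8 of the lid had 0.41 ± 0.15, adjusted p = 0.147. Psmd14, the deubiquitinase of the lid, had 0.40 ± 0.16, adjusted p = 0.188. All KI LIF/2i libraries were above all WT LIF/2i libraries for Psmc5, Psmd8 and Psmd14, and none of them was called. Psmd6 of the lid had the highest value of the base and lid between media in WT, 0.42 ± 0.17, adjusted p = 0.138.

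Psmb4 of the beta ring and Psmd4 of the base stood apart in WT replicate 2. The 3 WT LIF/2i libraries held 292, 597 and 306 CPM of Psmb4, in the order of their numbers, and 323 CPM in the averaged WT LIF sample against 510 CPM in replicate 2. Psmd4 had 289, 550 and 280 CPM in WT LIF/2i, and 326 against 465 CPM in WT LIF. In KI cells Psmb4 ran from 299 to 415 CPM and Psmd4 from 245 to 299 CPM. The libraries numbered 2 were thus the highest of all samples for both genes.

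These 2 genes lie near each other on chromosome 3, at chr3:94884093-94886961 and chr3:95032697-95042552. The 38 other tested genes within 1 Mb also stood high there. In WT LIF/2i replicate 2 their median log2 ratio to the other libraries of the group was 0.71, with 37 of 38 above 0. In WT LIF replicate 2 it was 0.57, with 36 of 38 above 0. Over genes of other chromosomes the medians were -0.00 and 0.01. In the KI libraries, set against the WT samples other than replicate 2 of the same medium, the median of the 38 genes ran from -0.14 to 0.20. The same WT libraries have the lowest Y-linked sums of their groups (46.2 and 75.0 CPM). What sets this stretch apart in WT replicate 2 was not tested.

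**Figure D5:**
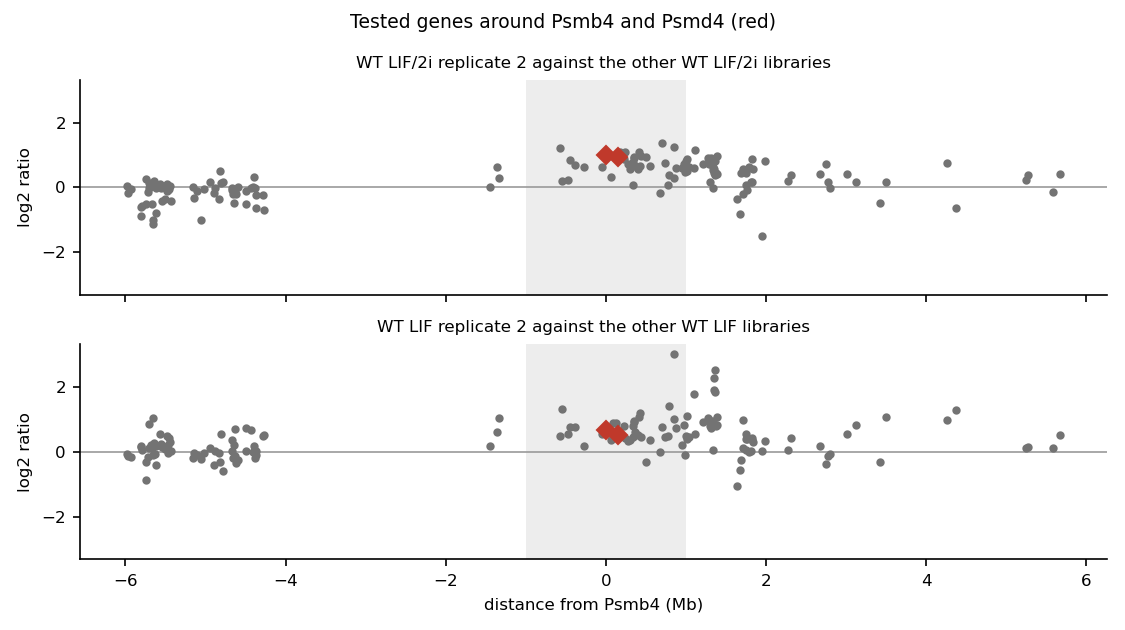
Log2 ratio of WT replicate 2 to the other WT libraries of the same medium for tested genes against their distance from Psmb4 (Mb), with LIF/2i above and LIF below; Psmb4 and Psmd4 are red and the grey band is the window of 1 Mb. Nearly all genes in the band lie above 0, with medians of 0.71 and 0.57.

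The WT values of both genes therefore depend on that replicate. With both WT libraries numbered 2 left out, an alternative chosen after seeing the data, the log2 fold change of Psmb4 between genotypes in LIF/2i went from -0.30 ± 0.26 to 0.10 ± 0.17, and in LIF from -0.19 ± 0.29 to 0.18 ± 0.21. That of Psmd4 went from -0.46 ± 0.24 to -0.09 ± 0.15 in LIF/2i and from -0.54 ± 0.26 to -0.26 ± 0.19 in LIF. Neither gene was called with or without those libraries. The promoter of Psmd4 before its start (chr3:95042615-95042864, minus strand, GRCm38.p6) is shown as an example of a member with matches to 2 of the 3 motifs, in capitals: CCGGAAG, and CCAAT read on the other strand.
Psmd4: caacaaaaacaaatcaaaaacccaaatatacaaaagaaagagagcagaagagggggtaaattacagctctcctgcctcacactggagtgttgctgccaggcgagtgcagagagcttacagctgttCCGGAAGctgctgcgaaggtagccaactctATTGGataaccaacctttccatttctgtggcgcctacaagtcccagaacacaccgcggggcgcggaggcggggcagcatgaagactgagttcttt

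The tissue-specific beta subunits were near the floor of detection. Psmb9, which replaces Psmb6 in the immunoproteasome, had 1, 2 and 1 counts in WT LIF/2i, and 18, 11 and 15 counts in WT LIF. It had 10, 8 and 9 counts in KI LIF/2i and 11, 14 and 3 counts in KI LIF. On the CPM scale WT LIF/2i stood at 0.158 to 0.304, below every other sample, and the remaining samples between 0.996 and 3.81. At these counts 3 counts amount to 0.309 to 1.3 CPM, depending on the library.

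Psmb9 rose in WT cells from LIF/2i to LIF. The ratio of counts per library total was 10.3, with an exact Clopper-Pearson interval at 95% of 3.61 to 40.2 that covers counting error only; WT LIF replicate 3 was left out of it. The fitted log2 fold change, 3.07 ± 0.65 with an adjusted p of 0.00999, depends on the prior count. Psmb9 also passed the filter on low counts only through LIF samples, where it was high. Its call thus concerns a gene kept for its LIF counts and is not separate evidence of a rise. Leaving out WT LIF/2i replicate 1 ended the call (adjusted p = 0.0516). Between KI and WT in LIF/2i the groups did not overlap, but the adjusted p was 0.0903; the ratio of counts was 4.96 (1.73 to 19.5). In KI cells from LIF/2i to LIF the ratio was 2.56 (1.45 to 4.51), and the adjusted p was 0.152.

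Psmb8, which replaces Psmb5 and was not tested, had 0 counts in all 3 WT LIF/2i libraries, 7, 16 and 7 counts in WT LIF, 3 counts in 1 KI LIF/2i library and 2 counts in 1 KI LIF library. It was thus seen chiefly in WT LIF. The thymic subunit Psmb11 had 5 counts over all 12 libraries. Psmb8 and Psmb9 lie in the major histocompatibility complex on chromosome 17, beside Tap1 and Tap2, and Psmb9 overlaps Tap1 on the opposite strand. Tap1, a peptide transporter subunit, had a log2 fold change of 0.55 between media in WT cells, adjusted p = 0.610.

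Psmb10, which replaces Psmb7 and lies on chromosome 8, had enough counts to be read. It had 5.69, 8.13 and 6.69 CPM in WT LIF/2i, and 8.55 and 20.01 CPM in WT LIF. It had 12.5, 14.4 and 7.55 CPM in KI LIF/2i, and 20.1, 29.0 and 21.2 CPM in KI LIF. In both genotypes every LIF sample was above every LIF/2i library. The log2 fold change from LIF/2i to LIF was 1.06 ± 0.39 in WT cells, adjusted p = 0.0953, and 1.02 ± 0.34 in KI cells, adjusted p = 0.0874. With the replicate block over the KI libraries, chosen after seeing the data, it was 1.04 in KI cells with an adjusted p of 0.0113. Between genotypes it was 0.75 in LIF/2i (adjusted p = 0.254) and 0.72 in LIF (adjusted p = 0.544).

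The stretch upstream of Psmb10, at chr8:105938445-105938642 on the minus strand (GRCm38.p6), is shown beside that of Psme4. The 2 genes moved in opposite directions in the KI libraries fitted with the replicate block. None of the 3 motifs occurs in it.
Psmb10: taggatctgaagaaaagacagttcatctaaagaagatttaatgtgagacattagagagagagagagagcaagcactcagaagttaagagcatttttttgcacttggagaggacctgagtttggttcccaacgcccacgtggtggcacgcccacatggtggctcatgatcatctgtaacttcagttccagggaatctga

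Markers of other cell types also differed between media. All 12 fibroblast and feeder markers were in the table and 9 were tested. From LIF/2i to LIF, 5 were called higher and 1, Fn1, lower in WT cells (median log2 fold change 4.76), and 3 higher and 1, again Fn1, lower in KI cells (median 2.09). Their summed level was 4513 to 5624 CPM in WT LIF/2i, 2021 and 2466 in WT LIF, 3753 to 4573 in KI LIF/2i and 2111.7 to 2657 in KI LIF, most of it Fn1 (fibronectin), which had 4268 to 5255 CPM in WT LIF/2i and 1858 and 1590 in WT LIF. The other 11 markers summed to 108 to 369 CPM in WT LIF/2i, 162 and 876 in WT LIF, 106 to 465 in KI LIF/2i and 328 to 639.7 in KI LIF. The defining gene Col1a2 had 0.266 to 0.474 CPM in WT LIF/2i, 7.44 and 206 CPM in WT LIF, 0 to 2.35 CPM in KI LIF/2i and 35.5 to 42.3 CPM in KI LIF. WT LIF replicate 2, the higher of the WT LIF samples for Psmb10, was the higher for Col1a2, but the lower for Psmb9 (1.67 against 2.61 CPM). The summed level of each extraembryonic list was higher in every WT LIF sample than in any WT LIF/2i library. In KI cells this held for the sum of the primitive endoderm list. Single markers did not all follow the sums. Col4a1 had 130 CPM in WT LIF/2i replicate 3 and 96.2 CPM in the averaged WT LIF sample. Of 12 tested primitive endoderm markers, 12 had a log2 fold change above 0 between media in WT and 9 in KI cells. Trophectoderm markers summed to 132 to 158 CPM in WT LIF/2i, 351 and 457 in WT LIF, 94.3 to 225 in KI LIF/2i and 220 to 253 in KI LIF. Primitive endoderm markers summed to 359 to 624 CPM in WT LIF/2i, 965 and 1251 in WT LIF, 356 to 405 in KI LIF/2i and 643 to 689 in KI LIF. The part of these cells in the Psmb9 and Psmb10 values was not tested.

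No assembly factor passed the test. Psmg1 to Psmg4 encode chaperones that pair up to build the alpha ring, and Psmd5, Psmd9 and Psmd10 encode chaperones of the base. The 7 log2 fold changes between genotypes in LIF/2i ran from -0.39 for Psmg4 to 0.56 for Psmd9. Their median was -0.00, beside 0.24 for the rings and 0.25 for base and lid. These roles also differ in shared sequence. Over 10% of the words are shared in 1 of the 7 assembly factors and in 13 of 30 subunits (Psma8 and Psmc2 set aside). The part of shared sequence in these medians was not tested. Psmd5 had 192 and 160 CPM in WT LIF and 139, 149 and 141 CPM in KI LIF; all KI libraries were below both WT samples (15.9% of all genes), and the log2 fold change of -0.30 ± 0.14 had an adjusted p of 0.469. Psmg4 had the lowest value between media in WT cells among these genes, -0.53.

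Few related genes outside the symbol rule were called. None of 11 further proteasome partners (such as Adrm1, Usp14 and Pomp) and none of 11 shuttle factors and segregase genes (such as Vcp and Rad23b) was called in any of the 5 tests. Between genotypes in LIF/2i, the partners had a median of 0.14 with 9 of 11 above 0, and the shuttle factors 0.06 with 7 of 11. The 10 regulators of proteasome genes had -0.01 with 5 of 10 above 0. Between genotypes in LIF these medians were 0.04 (6 of 11), 0.07 (7 of 11) and -0.49 (2 of 10), against 0 over all genes. None of these genes was called between genotypes. Nfe2l1, the transcription factor known for raising proteasome genes when the protease is inhibited, had log2 fold changes of 0.01 and -0.02 between genotypes and -0.25 and -0.27 between media, none called. Its relative Nfe2l2 was the 1 called of 10 regulators, in KI cells from LIF/2i to LIF, at -0.56 ± 0.14, adjusted p = 0.0301. Of 6 ubiquitin and E1 genes, Ubb was called there, at -1.39 ± 0.33, adjusted p = 0.0216. Of 10 genes of class I antigen processing none was called; their median between media was 0.55 in WT and 0.43 in KI cells.

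Promoter sequences were matched for 40 of the 48 genes, 43 promoters in all, in the RefSeq table of GRCm38.p6. In the 250 bases before each start, 3 motifs were searched on both strands: TGANNNNGC, the core of the antioxidant-type element, CCAAT, and CCGGAAG, an ETS-type element; none of them contains another. TGANNNNGC occurred in 17 member promoters (39.5%) and in 35.2% of all 32851 promoters. CCAAT occurred in 14 (32.6%) and in 33.8% of all. CCGGAAG occurred in 13 (30.2%) and in 6.91% of all. It was found in 5 of 8 base genes and 3 of 6 lid genes with a promoter, and in 1 of 7 alpha ring and 0 of 4 beta ring genes. In Psme4 it lies 53 to 47 bases before the RefSeq start, inside the exon annotated by GENCODE and outside the stretch printed above. A match describes these letters and not a site in use.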

How the data were processed

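The values are raw counts per gene that the authors deposited in 1 table; per the file headers, reads over coding sequence were counted for 1 transcript a gene. Tools named in the submitters' processing notes, with no role, are UMI-tools 1.0.1, Bowtie 1.3.0 and cutadapt 3.4. Not given in the sources used here are the build, annotation, counting tool, use of strand and of molecular identifiers, and what was done with reads that match in several places. Transcripts were matched to GENCODE M21 (GRCm38; 47 of 48 members).

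Members and gene lists were chosen with earlier results of these data known. Genes kept by edgeR's filterByExpr (minimum count 10), 13229 of 22416, were scaled by TMM. A robust quasi-likelihood model (glmQLFit of edgeR 4.0.16, R 4.3.3) gave each group 1 mean over 11 samples. The design had assumed that agreeing libraries, if any, would be averaged; WT LIF replicates 1 and 3 were. Tests were two-sided quasi-likelihood F tests, adjusted by Benjamini and Hochberg's method over all genes tested and called under 0.05; SEs come from the F statistic. The fit was tested on simulated data. Ratios to a group mean use a pseudocount of 0.5 CPM.

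Values in every sample are given for members called in any test, Psme4, the 3 smallest p-values of each comparison, the constitutive and alternative subunit pairs and Psme1 to Psme3; Psmb4 and Psmd4 were added after their values were seen. KI libraries with the same number deviated together across media (correlations 0.50, 0.37 and 0.22). The block over the KI libraries alone was therefore added after seeing the data. Every other comparison had a pair under 0.1 (the lowest -0.09). Alternatives were DESeq2 1.42.0, its size factors, library totals, no filter, the replicate block, 12 separate libraries and leaving out each library.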

Additional observations from a re-analysis of the deposited data

How the results depend on the processing

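Each value in this part is the number of members called at an adjusted p under 0.05. Leaving out 1 library at a time, the number ranged from 0 to 2 between genotypes in LIF/2i (2 with all samples). It ranged from 0 to 2 between media in WT (2) and from 0 to 1 between media in KI (0). It was 0 between genotypes in LIF and in the interaction. The calls over the whole table moved as well. Between genotypes in LIF/2i, 31 genes were called higher and 33 lower without WT LIF/2i replicate 1, and 472 and 524 without KI LIF/2i replicate 1. Between media in WT these numbers were 381 and 465, and 1058 and 1109, without the same libraries. Between media in KI they were 211 and 287 without KI LIF replicate 3, and 632 and 705 without WT LIF/2i replicate 3. Between media in KI cells DESeq2 gave 2, no filter on low counts 1, 12 libraries counted separately 1, the replicate block over all libraries 2 and the replicate block over the KI libraries 2. In that order, the genes called higher and lower over the whole table were 773 and 856, 485 and 693, 650 and 770, 693 and 791, and 1014 and 992. Between media in WT cells 12 separate libraries gave 4, with 1240 genes called higher and 1497 lower. That fit counts the agreeing WT LIF replicates 1 and 3 separately. The replicate block changed no other call by more than 1.5 times (2 members between genotypes in LIF/2i, 3 between media in WT). Over the 12965 genes of that fit, 250 were called higher and 316 lower between genotypes in LIF/2i. Between media in WT 1316 were called higher and 1540 lower.

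Besides the replicate block over the KI libraries, alternatives chosen after seeing the data were as follows. Without both agreeing WT LIF libraries, Psme4 had a log2 fold change of -0.67 between genotypes in LIF/2i and -0.77 between media in WT. Without both WT libraries numbered 2 it had -0.67 and -0.62. These 2 fits leave 1 sample in WT LIF, so no number of calls is given for them. Without both KI libraries numbered 1 the number was 4 between genotypes in LIF/2i, with 688 genes called higher and 878 lower. It was 1 between genotypes in LIF (Psme4, with 166 and 247 genes) and 1 between media in KI (412 and 527 genes). The cause was not tested, beyond fewer samples in these fits.

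Of the 1103 values for members named by rule, 1008 kept direction and side of the threshold, 28 lost a call, 16 gained one and 51 changed sign. No called value changed sign, and no value was called after a change. The values that changed sign were reported between -0.28 and 0.13. The ranges over fits without 1 library that cross 0 are given first. Between genotypes in LIF/2i they were -0.071 to 0.16 for Psma7, -0.29 to 0.028 for Psma8 and -0.095 to 0.052 for Psmd5. Between genotypes in LIF they were -0.11 to 0.071 for Psma7, -0.054 to 0.14 for Psmb5, -0.0084 to 0.045 for Psmb6, -0.21 to 0.20 for Psme1, -0.95 to 0.31 for Psme2 and -0.057 to 0.16 for Psme3. Between media in KI they were -0.077 to 0.14 for Psma7, -0.19 to 0.061 for Psmb5, -0.024 to 0.26 for Psmd13, -0.22 to 0.20 for Psme1 and -0.21 to 0.017 for Psme3, and between media in WT -0.56 to 0.016 for Psme2. Under the other settings the sign changed as follows. With the replicate block over all libraries, Psma7 had 0.011 and Psme1 0.0067 between genotypes in LIF, and 12 separate libraries gave 0.019 and 0.018, and 0.0054 for Psme2. No filter gave -0.0052 for Psmb6 between genotypes in LIF, and -0.0015 for Psma7 and -0.024 for Psme1 between media in KI. Without both agreeing WT LIF libraries, Psmb5 had -0.019 and Psmb6 -9.87e-05 between genotypes in LIF, Psmd5 -0.0081 between media in WT and Psme1 -0.0018 between media in KI. Without both WT libraries numbered 2, Psma7 had 0.041, Psme1 0.20 and Psme2 0.21 between genotypes in LIF, and Psmb4, named after its values were seen, went from -0.30 to 0.10 in LIF/2i and from -0.19 to 0.18 in LIF. Without both KI libraries numbered 1, Psma7 had -0.064 and Psma8 0.035 between genotypes in LIF/2i, Psmb6 -0.0079, Psme1 0.12 and Psme2 0.20 between genotypes in LIF, and Psme1 -0.027 between media in KI.

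Of the medians by role, 572 moved by less than their spread and 23 by more; 46 of the 595 changed sign, all reported between -0.08 and 0.08 (activators and inhibitor between genotypes in LIF from -0.08 to as high as 0.20). Depth limits Psmb8, Psmb9, Psmb11 and Psme2, whose libraries hold 0 to 18 counts, and shared sequence limits genes with copies.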
